A study of Rattus norvegicus with 6 samples.

Results

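The genes described here are the rat major histocompatibility complex (RT1) genes and the genes that load and assemble their products. They comprise every gene in the count files whose symbol starts with RT1-, together with B2m, Tap1, Tap2, Tapbp, Cd74, Ciita, Nlrc5, Psmb8, Psmb9 and Psmb10. This rule gave 57 of 33294 genes, of which 17 were class I (RT1-A and RT1-CE), 9 were class II (RT1-B and RT1-D), 21 were other RT1 genes and 10 lay outside RT1. The rule used no measured value.

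RNA was sequenced from the whole pituitary gland of 6 adult male Sprague-Dawley rats aged 11 weeks, with 1 library per rat. The nicotine group held 3 male offspring of dams that carried a 28-day osmotic pump delivering nicotine at 6 mg/kg per day during pregnancy. The control group held 3 male offspring of dams whose pump delivered saline. Sprague-Dawley is an outbred stock, and the labels give neither the RT1 haplotype of a rat nor whether rats of a group shared a dam. The study describes the exposure as prenatal. Its methods put birth before the 28 days of the pump had passed, and they do not mention removal of the pump. Exposure through the dam after birth therefore cannot be told apart from exposure before birth. The comparison asked how the adult pituitary transcriptome differed between offspring of dams given nicotine and offspring of dams given saline.

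Class I molecules sit on nearly all nucleated cells and show peptides from inside the cell to CD8 T cells. These peptides are cut by the proteasome, carried into the endoplasmic reticulum by the Tap transporter, and loaded onto a heavy chain bound to beta-2 microglobulin. Class II molecules are made mainly by professional antigen-presenting cells, such as macrophages, dendritic cells and B cells, and show peptides from the endosomal pathway to CD4 T cells. In the pituitary, hormone-producing cells share the gland with resident macrophages, endothelium and folliculostellate cells.

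Library totals ranged from 28318383 to 54309256 counts in the control group and from 46239801 to 85977002 counts in the nicotine group, and the median nicotine total was 1.70 times the median control total. Class I and class II genes together received 29583 to 69443 counts per library. The extraction text in the labels describes testis, so the tissue was checked against marker genes. The 8 pituitary hormone and lineage genes summed to 113914 to 176512 CPM (counts per 1000000 counts of a library), whereas 7 testis germ cell genes stayed at or under 0.0848 CPM in sum. The read numbers that a supplement of the study lists by library name ran in the opposite order to these totals, larger for the libraries named as control, and the totals of all nicotine libraries exceeded the listed reads. Taken as shares of the listed reads, the totals were uneven between the groups as named and even over the 6 libraries with the groups exchanged. This was not resolved. Every direction given here follows the GEO labels, and an exchange of the groups would turn each of them. Levels are CPM after TMM normalization, a scaling between libraries. They were not divided by gene length, so no level is compared between genes, and where 3 values are given they stand in the order of replicates 1, 2 and 3.

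Of the 57 members, 45 passed edgeR's filter on low counts. The 12 others were RT1-CE7 and 11 other RT1 genes, and they are named here after their values were seen. RT1-M4, RT1-M5, RT1-M1-5, RT1-M10-1 and RT1-T18 had 0 counts in all libraries, and a count of 0 in the 314872477 counts of the 6 libraries together allows a level of up to 0.00953 CPM. That limit covers counting error only. The remaining filtered genes, RT1-CE7, RT1-M1-4, RT1-M6-2, RT1-Ha, RT1-O1, RT1-S2 and RT1-T24-2, had at most 13 counts in any library.

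With edgeR's quasi-likelihood test, 0 of the 45 members tested combined a fold change above 1.5 with an adjusted p below 0.1, and 0% of the 17292 genes tested did. An unadjusted p under 0.05 was reached by 3 members that were higher after nicotine, against 3.13% of all genes tested, and by 7 members that were lower, against 3.01%. DESeq2, the tool named in the study's methods, called 1 member higher (RT1-CE16) and 1 member lower (RT1-A2) at the same thresholds. Over all genes, DESeq2 called 0.1% as higher and 0.239% as lower. The 3 nicotine libraries lay above the 3 control libraries for 4 members, against 6.12% of all genes tested, and below them for 9 members, against 5.14%. The groups overlapped for the other 32. Of the 45 log2 fold changes, 30 were below 0 and the median was -0.18, whereas 49.0% of all genes tested were below 0 with a median of 0.0070.

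**Figure D1:**
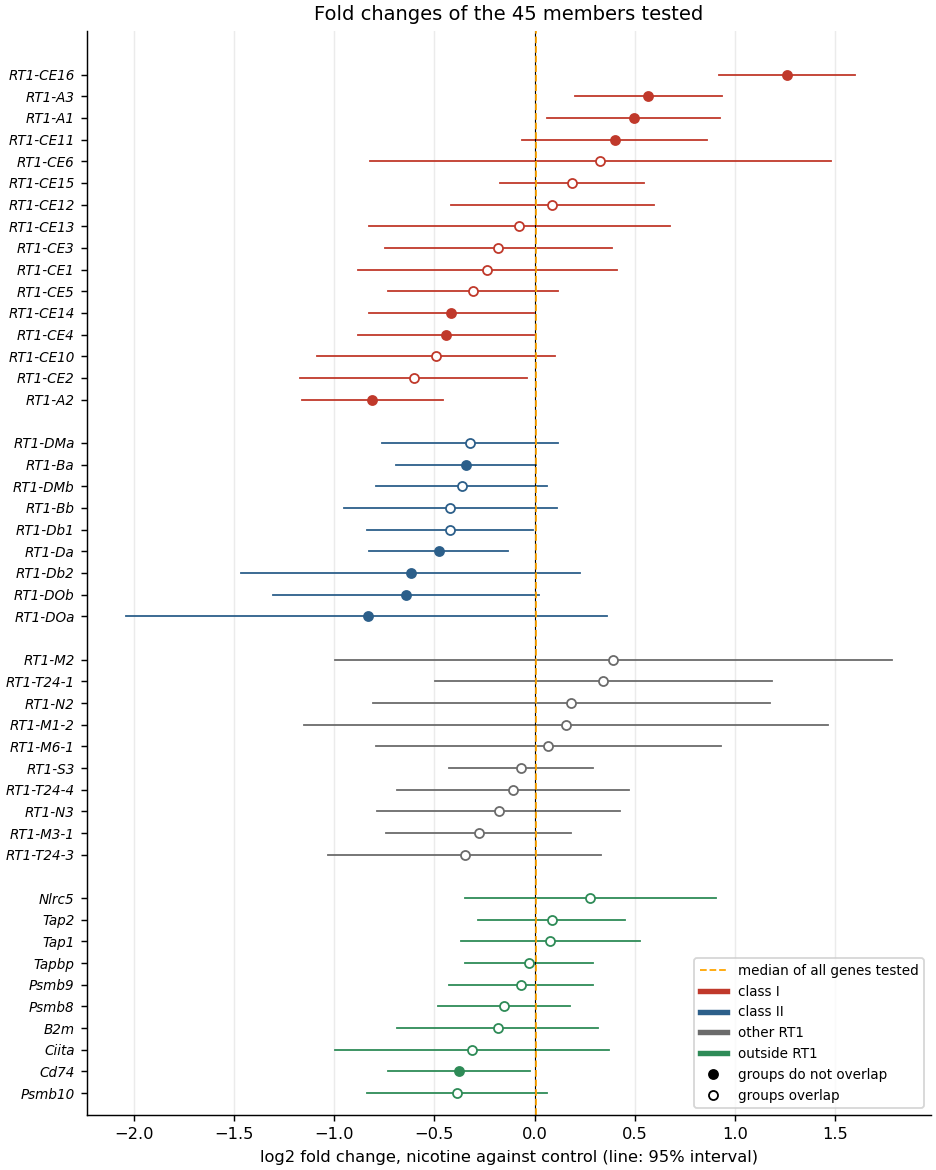
Log2 fold change of nicotine against control (x axis) for the 45 members tested, as points with 95% intervals from edgeR, arranged by class. Filled points mark genes whose groups do not overlap, and the dashed line marks the median of all genes tested. Class I genes spread from -0.81 to 1.26, while the 9 class II genes all lie between -0.83 and -0.32.

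Class I genes differed in opposite directions. RT1-CE16, RT1-A3 and RT1-A1 were higher in all 3 nicotine libraries than in any control library, whereas RT1-A2, RT1-CE14 and RT1-CE4 were lower in all 3. Of the 16 class I genes tested, 7 had a log2 fold change above 0 and 9 below 0, with a median of -0.13. An unadjusted p under 0.05 was reached by 3 higher genes and 4 lower genes, against 3.13% and 3.01% of all genes tested.

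RT1-CE16, a class I heavy chain gene of the RT1-C/E region, had 47.4, 41.9 and 45.04 CPM after nicotine and 20.2, 18.4 and 17.6 CPM in controls. The lowest nicotine library was above the highest control library, and the values within each group lay close together. The log2 fold change was 1.26 (SE 0.15, 95% interval 0.92 to 1.599), a 2.39-fold difference. Its edgeR adjusted p was 0.103, the smallest of all genes tested, and its DESeq2 adjusted p was 1.69e-07. The edgeR value was under 0.1 with library sizes alone, without a filter and with a robust prior, and it moved widely when 1 library was left out. It was 0.0614 without nicotine replicate 2, 0.0984 without nicotine replicate 3, 0.137 without control replicate 2, 0.542 without nicotine replicate 1, 0.593 without control replicate 3 and 0.652 without control replicate 1, with a log2 fold change of 1.22 to 1.32 throughout. Over 3 against 3 rats an exact two-sided permutation test of this single gene gave p = 0.1, the smallest value it can give.

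RT1-A2, a classical class I heavy chain gene of the RT1-A region, had 128, 111 and 124 CPM after nicotine and 240, 202 and 194 CPM in controls. All nicotine libraries were far below the lowest control library. The log2 fold change was -0.81 (SE 0.16), so that the control level was 1.75 times the nicotine level. DESeq2 called the gene with an adjusted p of 0.0123, while the edgeR adjusted p was 0.492. Leaving out 1 library at a time kept the DESeq2 adjusted p between 0.00377 and 0.0983, and the edgeR adjusted p between 0.295 and 0.852.

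RT1-A3 and RT1-A1 are the other genes of the RT1-A region in the files. RT1-A3 had 57.9, 47.7 and 50.4 CPM after nicotine and 40.5, 34.7 and 30.2 CPM in controls, a log2 fold change of 0.57 (SE 0.17, edgeR adjusted p = 0.760). RT1-A1 had 43.2, 39.8 and 41.7 CPM after nicotine and 22.6, 27.8 and 38.1 CPM in controls, a log2 fold change of 0.49 (SE 0.20, edgeR adjusted p = 0.806). The groups did not overlap for either gene, although for RT1-A1 control replicate 3 came close to the nicotine libraries. Neither gene passed the adjusted threshold in edgeR or in DESeq2, where the adjusted p was 0.343 for RT1-A3 and 0.711 for RT1-A1.

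RT1-CE5, the class I gene with the most counts, had 233, 161 and 230 CPM after nicotine and 286, 219 and 266 CPM in controls. The groups overlapped, since 2 nicotine libraries lay above control replicate 2, and the log2 fold change was -0.31 with a 95% interval of -0.73 to 0.12. RT1-CE14 had 35.1, 36.7 and 26.7 CPM against 52.5, 41.2 and 37.7 CPM, with a log2 fold change of -0.42 (SE 0.19). RT1-CE4 had 11.2, 15.3 and 13.3 CPM against 15.5, 16.8 and 21.7 CPM, with a log2 fold change of -0.44 (SE 0.20). These 2 genes were lower in every nicotine library, but the gap between the groups was smaller than the SD within a group. RT1-CE2 had 5.07, 4.75 and 5.53 CPM against 9.41, 8.83 and 5.10 CPM, so that control replicate 3 fell among the nicotine libraries. The edgeR adjusted p was between 0.806 and 0.827 for these 4 genes.

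The other 8 class I genes tested had edgeR adjusted p between 0.814 and 0.973, and their groups overlapped except for RT1-CE11. RT1-CE11, named after its values were seen, had 7.28, 8.72 and 7.47 CPM after nicotine and 4.98, 6.30 and 6.47 CPM in controls. Its log2 fold change of 0.40 had a 95% interval from -0.06 to 0.86.

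**Figure D2:**
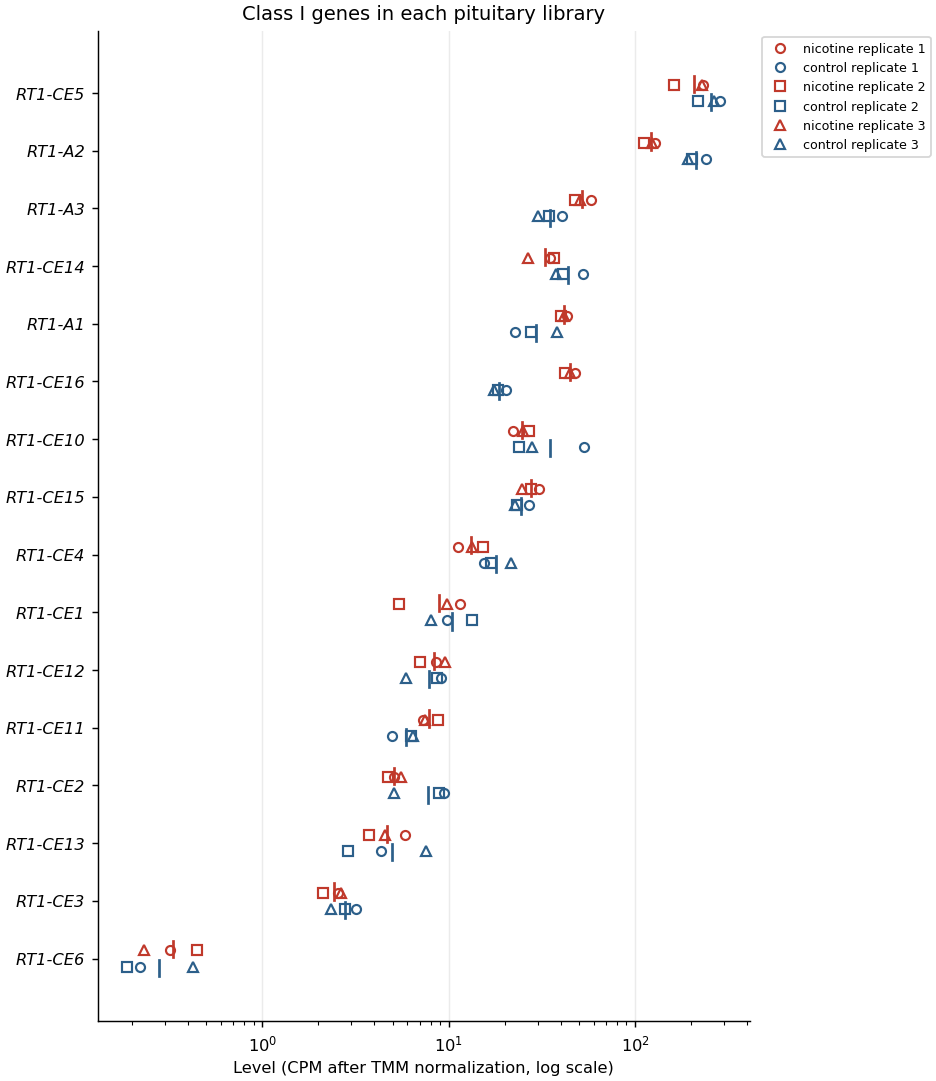
Level of each class I gene tested (y axis) in the 6 pituitary libraries, in CPM after TMM normalization on a log axis. Open symbols are single rats, with 1 shape per replicate number, red for nicotine and blue for control, and short vertical lines are group means. RT1-CE16 separates most clearly, with nicotine libraries between 41.9 and 47.4 CPM and control libraries between 17.6 and 20.2 CPM.

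Class I genes are related in sequence, and reads that match several of them can be assigned to one or another. How alike their transcripts are was not measured. The handling of such reads is not given in the sources used here. Several spans also overlap on the GRCr8 map, namely those of RT1-CE12 with RT1-CE13 and RT1-CE14, of RT1-CE10 with RT1-CE11, and of RT1-CE4, RT1-CE5, RT1-CE6 and RT1-CE7. The values of single class I genes are therefore uncertain, while the sum over the class does not depend on how the counted reads were split within it. The sum still depends on reads that were left uncounted or assigned to genes outside the class. The class I sum was 649, 541 and 621 CPM after nicotine and 799, 650 and 691 CPM in controls, a log2 ratio of -0.24. The highest nicotine sum and the lowest control sum differed by little more than 1 CPM, at 649.4 and 650.5, and the groups overlapped with library sizes alone. Summed over RT1-CE16, RT1-A1 and RT1-A3, the level was 149, 129 and 137 CPM after nicotine and 83.4, 80.8 and 85.8 CPM in controls, a sum of genes chosen after their values were seen.

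The make-up of the class I counts differed between the groups in the same way in every library. RT1-A2 held 20.1% ± 0.450 (SD, n = 3) of all class I counts after nicotine and 29.7% ± 1.58 (SD, n = 3) in controls. RT1-CE16 held 7.44% ± 0.271 after nicotine and 2.63% ± 0.169 in controls (SD, n = 3). RT1-A3 held 8.62% ± 0.437 against 4.92% ± 0.495 and RT1-A1 6.91% ± 0.397 against 4.20% ± 1.34 (SD, n = 3). The groups did not overlap for these 4 genes. They also did not overlap for RT1-CE15, at 4.01% to 5.11% against 3.29% to 3.60%, although its CPM groups overlapped. The same held for RT1-CE11, at 1.12% to 1.61% against 0.624% to 0.968%. The shares of a library add up to a fixed whole, so a lower share of RT1-A2 by itself raises the shares of other genes. No test was made on the shares. The share of RT1-CE5 was 34.2% ± 3.90 after nicotine and 35.97% ± 2.41 in controls (SD, n = 3), and its groups overlapped. These shares need no scaling between libraries, but they inherit the uncertain split of shared reads.

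**Figure D3:**
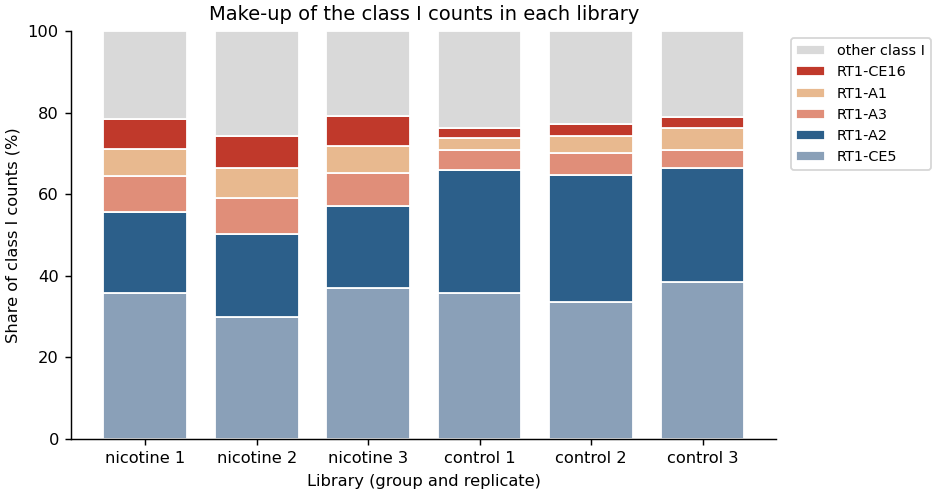
Share of all class I counts (y axis, percent) held by RT1-CE5, RT1-A2, RT1-A3, RT1-A1, RT1-CE16 and the remaining class I genes in each of the 6 libraries (x axis), 1 stacked bar per rat. The RT1-A2 segment spans 19.7% to 20.6% in nicotine libraries and 28.0% to 31.1% in control libraries, and the RT1-CE16 segment 7.25% to 7.75% against 2.53% to 2.83%.

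For every 100 RT1-A2 counts there were 37.05, 37.6 and 36.3 RT1-CE16 counts after nicotine and 8.41, 9.09 and 9.07 in controls, a 4.18-fold difference between the group means. The SD between rats of this ratio was 0.650 in the nicotine group and 0.384 in the control group (n = 3 each). Counting error alone would give an SD of about 0.813 and 0.349. RT1-A3 counts per 100 RT1-A2 counts were 45.2, 42.8 and 40.7 after nicotine and 16.8, 17.1 and 15.6 in controls. Their SD was 2.30 in the nicotine group and 0.808 in the control group. Both were above the 0.896 and 0.493 of counting error alone. RT1-A1 counts per 100 RT1-A2 counts were 33.7, 35.8 and 33.6 after nicotine and 9.41, 13.7 and 19.7 in controls. Their SD was 1.21 in the nicotine group and 5.14 in the control group, against 0.775 and 0.449 from counting error alone. These pairs of genes were chosen after their values were seen, and no test was made on the ratios. Neither the RT1 haplotypes nor the dams of these outbred rats are known. A difference in haplotype or dam between the groups cannot be told apart from the exposure here.

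On the GRCr8 gene map, 52 of the 57 members lie on chromosome 20. In the order of the members alone, which leaves out any other gene between them, RT1-A3, RT1-A2 and RT1-A1 come one after the other before Tapbp, and RT1-CE16 is the RT1-CE gene nearest to RT1-T24-1, with the class II genes, Tap1, Tap2, Psmb8 and Psmb9 between the 2 clusters. RT1-A2 was lower after nicotine, while the nearest members on both sides were higher. The promoters of these 4 genes are shown because the genes differed in direction while their upstream sequences in the reference genome are closely alike. The promoters of the rats measured, whose RT1 haplotypes are unknown, were not sequenced and may differ from the reference. RefSeq promoters, from 250 bases before to 50 bases after the start, were at hand for 49 of the 57 members. The printed stretches are from GRCr8, run 5′ to 3′ on the gene's strand, and have in capitals GGGATTCC (a kappa B site), TGACG (the conserved part of an X2 box) and CCAAT (a Y box), or ATTGG where CCAAT lies on the opposite strand.
RT1-CE16, chr20:3265444-3265583, minus strand: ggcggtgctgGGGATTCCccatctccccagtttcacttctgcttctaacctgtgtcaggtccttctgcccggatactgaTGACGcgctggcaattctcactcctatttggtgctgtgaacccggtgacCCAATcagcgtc
RT1-A2, chr20:4872688-4872829, plus strand: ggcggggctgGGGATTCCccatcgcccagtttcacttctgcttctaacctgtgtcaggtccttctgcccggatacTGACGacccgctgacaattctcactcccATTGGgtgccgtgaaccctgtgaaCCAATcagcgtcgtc
RT1-A3, chr20:4849272-4849414, plus strand: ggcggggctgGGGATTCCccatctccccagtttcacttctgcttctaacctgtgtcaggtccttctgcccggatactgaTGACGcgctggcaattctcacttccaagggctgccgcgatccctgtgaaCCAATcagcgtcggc
RT1-A1, chr20:4907074-4907208, plus strand: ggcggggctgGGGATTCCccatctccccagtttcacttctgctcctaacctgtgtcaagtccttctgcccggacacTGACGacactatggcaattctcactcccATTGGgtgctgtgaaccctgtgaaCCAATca

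All 4 stretches hold the 3 motifs in the same order. The 250 bases before the start were aligned locally, so that ends that differ are left out. RT1-CE16 matched RT1-A2 at 89.3% of 206 aligned columns, RT1-A3 at 90.6% of 212 and RT1-A1 at 85.7% of 245. RT1-A2 matched RT1-A3 at 89.6% of 251 and RT1-A1 at 91.1% of 202, and RT1-A1 matched RT1-A3 at 91.3% of 206. Across the 105 pairs of class I promoters the identity ranged from 50.8% to 93.3%, with a median of 79.4%. Searched on both strands, GGGATTCC occurred in 9 of 15 class I promoters and in 1.23% of the 33469 rat promoters in the table. TGACG occurred in 5 of 15 (RT1-A1, RT1-A2, RT1-A3, RT1-CE15 and RT1-CE16) against 21.2% of all, and CCAAT in 11 of 15 against 37.5%. GAAANNGAA, a core of an interferon response element, matched 0 of 15 class I promoters and 9.71% of all promoters. The search required exactly this order of letters. All 4 printed stretches hold tttcacttc, which resembles the core on the opposite strand but is not matched by it. The 0 therefore does not show that class I promoters lack such an element. A match describes letters in the window and no binding was measured.

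Among the class II genes, all 9 had a lower fitted level after nicotine. The log2 fold changes ran from -0.83 to -0.32 with a median of -0.42. An unadjusted p under 0.05 was reached by RT1-Da and RT1-Db1, while 3.01% of all genes tested were lower with such a p. None passed the adjusted threshold in edgeR or DESeq2 (edgeR adjusted p between 0.760 and 0.832). For 5 of the 9 genes, all nicotine libraries lay below all control libraries, against 5.14% of all genes tested. Class II genes are transcribed together in antigen-presenting cells, so that their directions are not independent of each other. The glands were sequenced whole, so fewer cells of a type and less RNA per cell cannot be told apart.

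RT1-Da encodes the alpha chain of RT1-D, the rat counterpart of HLA-DR. It had 90.6, 82.8 and 69.1 CPM after nicotine and 112, 106 and 120 CPM in controls, with a log2 fold change of -0.48 (SE 0.16, edgeR adjusted p = 0.760). The highest nicotine library remained below the lowest control library. RT1-Db1 encodes the partner beta chain and had 73.6, 57.8 and 50.7 CPM against 74.3, 72.1 and 97.3 CPM, with a log2 fold change of -0.42 (SE 0.19, edgeR adjusted p = 0.806). Here nicotine replicate 1 lay among the control libraries.

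RT1-Ba and RT1-Bb encode the alpha and beta chains of RT1-B, the counterpart of HLA-DQ. RT1-Ba had 18.7, 18.1 and 16.6 CPM after nicotine and 21.6, 23.6 and 22.5 CPM in controls. Its log2 fold change was -0.34 (SE 0.16, edgeR adjusted p = 0.808), with narrow groups that did not overlap. RT1-Bb had 56.3, 29.5 and 29.6 CPM against 48.5, 50.3 and 55.4 CPM, with a log2 fold change of -0.42 and a 95% interval of -0.95 to 0.11. Nicotine replicate 1 was the highest of all 6 libraries for RT1-Bb, while the other nicotine libraries were the lowest. Without that library the log2 fold change of RT1-Bb was -0.80, and DESeq2 then called the gene with an adjusted p of 0.0326.

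The genes for the peptide-editing molecules are named here after their values were seen. RT1-DMa and RT1-DMb, which encode the molecule that exchanges the invariant chain peptide, had log2 fold changes of -0.32 and -0.36 with overlapping groups. RT1-DOa and RT1-DOb encode a modulator of DM, and both were lower in all nicotine libraries, with log2 fold changes of -0.83 (SE 0.54) and -0.64 (SE 0.30). RT1-Db2, a further beta chain gene, was also lower in all nicotine libraries, at 0.551, 0.499 and 0.363 CPM against 0.591, 0.643 and 0.924 CPM. RT1-DOa was counted at no more than 0.332 CPM in any library.

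**Figure D4:**
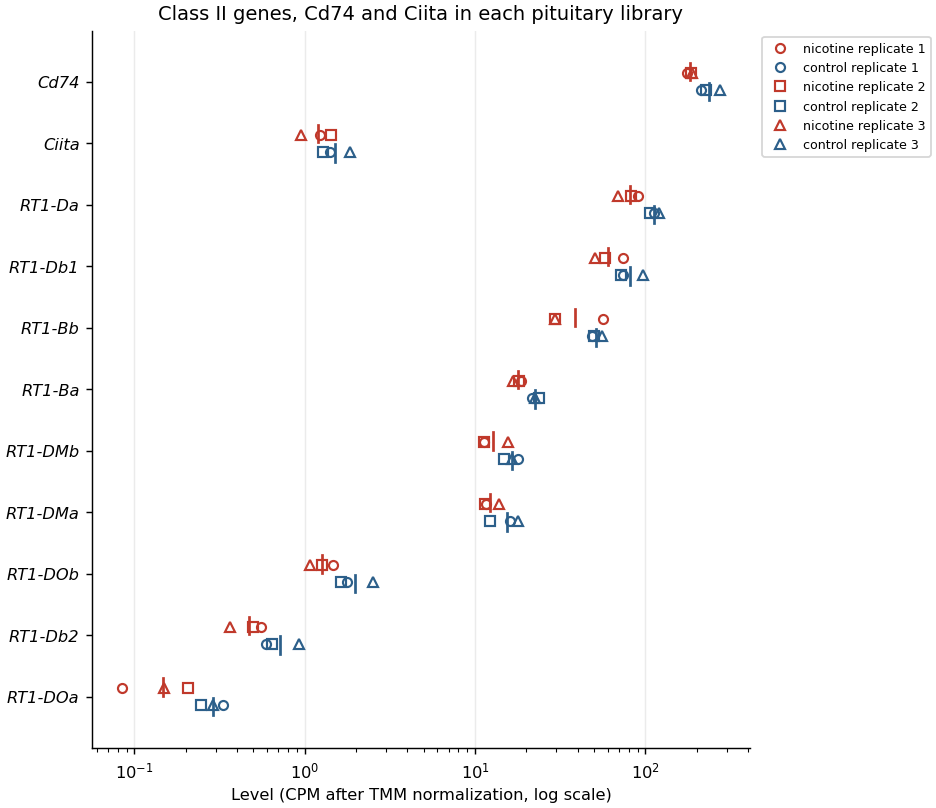
Level of Cd74, Ciita and the 9 class II genes (y axis) in the 6 pituitary libraries, in CPM after TMM normalization on a log axis, with symbols as single rats and short lines as group means. The group mean is lower after nicotine for each gene, and RT1-Bb shows nicotine replicate 1 at 56.3 CPM, apart from 29.5 and 29.6 CPM in the other nicotine libraries.

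Summed over the 9 class II genes, the level was 264, 213 and 197 CPM after nicotine and 293, 282 and 333 CPM in controls. The group mean was 25.8% lower after nicotine, a log2 ratio of -0.43, and the groups did not overlap with TMM, with RLE or with library sizes alone. Leaving out 1 library at a time moved the log2 ratio between -0.56 and -0.34.

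Cd74 and Ciita act in the same pathway. Cd74 encodes the invariant chain that escorts class II molecules to the endosome, and it had 175, 186 and 187 CPM after nicotine and 212, 226 and 273 CPM in controls. Its groups did not overlap, and the log2 fold change was -0.38 (SE 0.16, unadjusted p = 0.0397, edgeR adjusted p = 0.806). Ciita encodes the transactivator on which class II transcription depends. It had 1.23, 1.42 and 0.958 CPM against 1.40, 1.29 and 1.85 CPM, with overlapping groups and a log2 fold change of -0.31 (95% interval -0.997 to 0.37).

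The proximal promoters of RT1-Da and RT1-Ba are shown because these class II genes separated the groups most clearly at higher counts. Capitals mark CCTAGCAAC (an X1 box core) and CCAAT on the opposite strand, which reads ATTGG, in RT1-Da. In RT1-Ba they mark the TGACG matches of both strands, which overlap and read TGACGTCA together, and the same ATTGG.
RT1-Da, chr20:4515319-4515380, plus strand: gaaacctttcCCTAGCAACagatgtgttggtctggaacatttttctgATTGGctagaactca
RT1-Ba, chr20:4576978-4577028, plus strand: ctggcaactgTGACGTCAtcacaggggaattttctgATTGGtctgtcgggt
CCAAT was found in 8 of 8 class II promoters. CCTAGCAAC was found in 2 of 8 (RT1-Da and RT1-DOb), against 0.807% of all promoters, and TGACG in 1 of 8. GGGATTCC, present in 9 of 15 class I promoters, was found in 0 of 8 class II promoters, and GAAANNGAA also in 0 of 8.

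Markers of antigen-presenting cells were measured beside the class II genes, in lists written with earlier results of these data known. All 15 macrophage markers tested had a log2 fold change below 0, with a median of -0.47. An unadjusted p under 0.05 was reached by 5 of them (Ptprc, Aif1, Itgam, Mrc1 and Adgre1), against 3.01% of all genes tested. Their summed level ranged from 334 to 581 CPM after nicotine and from 589 to 689 CPM in controls. No macrophage marker was at 0 in all libraries. The most abundant macrophage markers, Lyz2 and C1qa, had log2 fold changes of -0.26 and -0.53 with overlapping groups.

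Of the 7 dendritic cell markers tested of 9, 6 were below 0 and 2 (Batf3 and Clec9a) had an unadjusted p under 0.05, against 3.01% of all genes tested. Their sums of 16.0 to 23.0 CPM and 17.6 to 28.1 CPM overlapped. B cell markers were counted at low levels, with 3 of the 5 in the files tested and sums of 1.65 to 2.71 CPM against 2.55 to 8.32 CPM. The 10 T and NK cell markers were all below 0, 5 of them with an unadjusted p under 0.05, against 3.01% of all genes tested. They summed to 35.3 to 39.8 CPM against 46.0 to 49.99 CPM. Cd4 made up most of these sums, at 29.4 to 34.6 CPM after nicotine and 32.8 to 40.2 CPM in controls, which overlapped. Cd8a, the next most abundant, reached no more than 2.55 CPM. The sum is therefore largely a measure of Cd4. The neutrophil markers, 7 of 7 below 0, summed to 23.2 to 24.1 CPM after nicotine and to 137, 7.98 and 102 CPM in controls. The most abundant markers had log2 fold changes of -0.63 (Batf3) and 0.41 (Zbtb46) for dendritic cells and -1.09 (Cd79b) and -1.12 (Cd79a) for B cells. In the T and NK cell list they were at -0.26 (Cd4) and -0.83 (Cd8a), and in the neutrophil list at -1.80 (S100a9) and -1.91 (S100a8). In these lists edgeR and DESeq2 called 0 genes. The part of these cell types in the class II result was not tested.

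**Figure D5:**
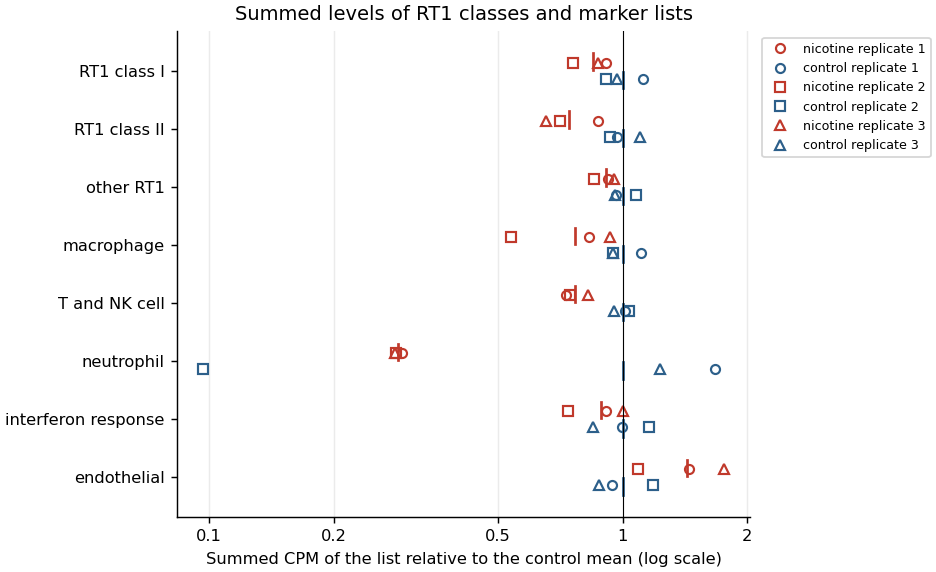
Summed CPM of the 3 RT1 classes and of 5 marker or response lists (y axis) relative to the control mean of each (x axis, log scale), with single rats as symbols and group means as short lines. Class II sums lie below all control libraries after nicotine, as do macrophage and T and NK cell sums, while the neutrophil sum of control replicate 2 lies below all nicotine libraries. The highest macrophage sum after nicotine, 581 CPM, lies only just under the lowest control sum, 589 CPM. Most of the T and NK cell sum comes from Cd4, whose own groups overlap.

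None of the other RT1 genes tested separated the groups, and some intervals were wide. Of 21 such genes, 10 were tested, 5 with a log2 fold change above 0 and 5 below 0, and their median was 0.00030. The 5 genes above 0 were thinly counted, each with a mean of no more than 1.25 CPM over the 6 libraries. The 5 below 0 each had a mean of at least 4.76 CPM. None of the 10 had an unadjusted p under 0.05, and the groups overlapped for all 10. RT1-S3, a non-classical class I gene, had 125, 151 and 136 CPM after nicotine and 128, 166 and 138 CPM in controls, and the 95% interval of its log2 fold change was -0.43 to 0.29. RT1-M3-1 encodes the molecule that presents N-formylated peptides. It had 73.2, 43.5 and 73.1 CPM against 86.8, 70.8 and 72.6 CPM, and its fold change rested largely on nicotine replicate 2, without which it was -0.08 on the log2 scale in place of -0.28.

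RT1-T24-4 and RT1-T24-3 are non-classical class I genes whose spans overlap on GRCr8, so their counts are uncertain. RT1-T24-4 had 16.7, 8.11 and 16.1 CPM after nicotine and 12.9, 15.9 and 15.0 CPM in controls. RT1-T24-3 had 7.10, 3.08 and 4.06 CPM against 5.17, 6.98 and 5.68 CPM. In both genes nicotine replicate 2 was the lowest of the 6 libraries, and the 95% intervals of the log2 fold changes, -0.69 to 0.47 and -1.03 to 0.33, included 0. Summed over all other RT1 genes the log2 ratio was -0.14. The nicotine sums lay below the control sums with TMM, narrowly at 237.8 against 239.2 CPM, and with RLE. The groups overlapped with library sizes alone.

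The class I assembly and loading genes overlapped between the groups. B2m, the common light chain of class I molecules, had 736, 525 and 766 CPM after nicotine and 890, 808 and 605 CPM in controls, with overlapping groups and a log2 fold change of -0.18 (95% interval -0.68 to 0.32). Tap1 had 18.8, 28.6 and 18.6 CPM against 21.7, 19.1 and 21.7 CPM, and Tap2, the partner subunit of the peptide transporter, had 36.3, 47.5 and 39.7 CPM against 36.8, 36.1 and 43.6 CPM. Both transporter genes were highest in nicotine replicate 2, and their log2 fold changes of 0.08 and 0.08 changed sign without it. Tapbp, which encodes tapasin, the bridge between the transporter and class I, had the smallest SE of the 10 genes, with 158, 154 and 159 CPM against 170, 150 and 161 CPM. Its log2 fold change of -0.03 had a 95% interval of -0.35 to 0.29.

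The catalytic subunits of the immunoproteasome did not separate the groups. Psmb8 had 33.0, 30.2 and 33.0 CPM after nicotine and 37.6, 32.9 and 36.5 CPM in controls, with the highest nicotine value only just above the lowest control value. Psmb9 had 67.5, 49.5 and 55.7 CPM against 64.8, 55.9 and 60.2 CPM. Psmb10 had 117, 66.8 and 103 CPM against 127, 115 and 134 CPM, with a log2 fold change of -0.39 (SE 0.20, edgeR adjusted p = 0.814). The low value of nicotine replicate 2 set much of that difference, which was -0.19 without it. Nlrc5, the transactivator of class I genes, had 4.96, 2.92 and 5.10 CPM against 3.54, 4.10 and 2.93 CPM, and its log2 fold change of 0.28 had a 95% interval of -0.35 to 0.90. The class I transactivator, B2m, transporter and immunoproteasome genes overlapped between the groups, but overlap with such wide intervals does not show equal levels. Their relation to the class I genes that separated the groups, in both directions, was not tested.

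GAAANNGAA, which had no exact match in the class I and class II promoter windows, was found in 6 of the 8 promoters at hand for the genes outside RT1 (B2m, Psmb8, Psmb10, Tap1, Tap2 and Tapbp). Of 24 interferon response genes tested, 17 had a log2 fold change below 0, with a median of -0.23. An unadjusted p under 0.05 was reached by 2 (Rsad2 and Gbp4), both lower, against 3.01% of all genes tested. Their summed level was 673 to 915 CPM after nicotine and 771 to 1056 CPM in controls, which overlapped. Ifi27, the most abundant of them, was at -0.28 on the log2 scale and its groups overlapped.

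The rest of the class I pathway, 13 chaperones, trimming enzymes, proteasome activators and regulators, had 0 genes with an unadjusted p under 0.05 and a median log2 fold change of -0.11, and its sums of 4620 to 4888 CPM and 4847 to 5546 CPM overlapped. Its most abundant genes, the chaperones Pdia3 and Calr, had log2 fold changes of -0.11 and 0.0046. The rest of the class II pathway, 16 endosomal proteases, transcription factors and ubiquitin ligases, also had 0 such genes and a median of -0.11, with 12 genes below 0. Its summed level was lower in all nicotine libraries, at 1533 to 1711 CPM against 1734 to 1881 CPM, the same direction as the class II genes. Ctss, the cathepsin that trims the invariant chain and is named after its values were seen, had a log2 fold change of -0.50. Its most abundant genes were the cathepsins Ctsb and Ctsl, at -0.11 and -0.26. Among class I-like genes outside RT1, 5 of 9 were tested and 0 had an unadjusted p under 0.05. Fcgrt, the neonatal Fc receptor, and Hfe, a regulator of iron uptake, were the most abundant of these, with log2 fold changes of -0.12 and -0.25.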

How the data were processed

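Pituitary RNA-seq libraries of 3 nicotine and 3 control rats were grouped by their GEO titles. Per the labels and the study's methods, stranded paired-end libraries were demultiplexed with bcl2fastq 2.20.0.422, the authors mapped reads to rn7 with HISAT2 2.1.0, and they deposited raw FeatureCounts counts per gene symbol, without normalization. The strand setting, the counting of reads or pairs and the handling of multi-mapped reads are not given in the sources used here. Counts were analysed in R 4.3.3 with edgeR 4.0.16 (filterByExpr, TMM, quasi-likelihood test, Benjamini-Hochberg over all genes tested), and with DESeq2 1.42.0 as the alternative. The cut-offs of the study's methods were used for calls, namely a fold change above 1.5 together with an adjusted p below 0.1. Replicates are separate rats, whose common biological coefficient of variation in edgeR came to 23.6%.

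The genes described in each library were the 4 most abundant of each RT1 class, the 10 members outside RT1, and any member called or with an unadjusted p under 0.05. From each other list the 2 most abundant genes and any called gene were named, except a gene that is not reported here. The members and lists were chosen with earlier results of these data known. Alternatives were RLE factors, unscaled library sizes, a filter of at least 10 counts per library or none, a block for the replicate number, and fits without each of the libraries. A robust prior, edgeR's older fit and DESeq2 with each library left out were chosen after seeing the data. The deviations of same-numbered libraries correlated at 0.027, -0.261 and -0.0945. These values gave no sign that the numbers pair the rats, but they cannot exclude it. Promoters were RefSeq sequences of GRCr8.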

Additional observations from a re-analysis of the deposited data

How the results depend on the processing

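The number of members called was 0 with RLE factors, with the filter of 10 counts per library and with the older fit. It was 1 with library sizes alone, without a filter and with the robust prior, each time RT1-CE16, with edgeR adjusted p of 0.0851, 0.0602 and 0.0895. DESeq2 called 2. Leaving out 1 library gave 0 to 1 calls in edgeR, with RT1-CE16 called without nicotine replicate 2 and without nicotine replicate 3, and 2 to 3 calls in DESeq2, with RT1-Bb added without nicotine replicate 1. The replicate number as a block left 0 members called and gave RT1-CE16 an edgeR adjusted p of 0.123.

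The 10 members with an unadjusted p under 0.05 became 6 with library sizes alone, 6 without a filter, 4 to 9 with 1 library left out in edgeR and 5 to 9 in DESeq2. The 7 lower members were the ones that varied, between 2 without nicotine replicate 3 and 7 under that filter of 10 counts, while 2 or 3 were higher in every setting. Members with groups apart numbered 13 and became 15 to 21 with 1 library left out, since fewer libraries overlap less often. For these other settings no share over all genes tested is at hand. Neither the counts of members by unadjusted p nor those by groups apart can be read against it. All class II genes tested stayed below 0 in every setting, 9 of 9, or 8 of 8 with that filter.

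Among the named genes, log2 fold changes reversed only for 6 that were near 0. With library sizes alone Tapbp was at 0.019. With 1 library left out, edgeR gave -0.28 to 0.15 for RT1-T24-4, -0.17 to 0.19 for Tap1, -0.041 to 0.18 for Tap2 and -0.20 to 0.023 for Psmb9, each reversed without nicotine replicate 2, where DESeq2 gave 0.16, -0.16, -0.034 and 0.032. Tapbp ranged from -0.076 to 0.014, reversed without control replicate 1, where DESeq2 gave 0.012. RT1-S3 ranged from -0.15 to 0.045, reversed without control replicate 2, where DESeq2 gave 0.056, and DESeq2 put it at 0.00081 without nicotine replicate 1. For these shifts the cause was not tested. Directions rest on the GEO labels and would turn with the groups exchanged. Depth limits the genes under about 1 CPM, and the uncertain split of shared reads among class I genes limits single class I values. The RT1 haplotypes and dams are not given, so a difference in either between the groups cannot be told apart from the exposure.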

Other observations

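Single libraries stood apart for some members that the comparison did not turn on, which were chosen after their values were seen. RT1-CE10, a class I gene whose span overlaps RT1-CE11, had 53.3 CPM in control replicate 1 and 22.2 to 27.9 CPM in the other 5 libraries. RT1-CE1 had 5.45 CPM in nicotine replicate 2 and 8.00 to 13.4 CPM elsewhere. RT1-CE13 had 7.60 CPM in control replicate 3 and 2.89 to 5.81 CPM elsewhere. RT1-M2, an other RT1 gene, had 1.06 CPM in nicotine replicate 1 and 0.215 to 0.555 CPM in the other 5 libraries. RT1-Ha, which did not pass the filter, was counted at 0.0326 to 0.0496 CPM after nicotine and at 0.0528 to 0.189 CPM in controls, from 2 to 10 counts per library, so that it was not tested.

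Endothelial genes, another cell type of the gland, were mostly higher after nicotine, with 9 of 10 log2 fold changes above 0 and a median of 0.42. An unadjusted p under 0.05 was reached by 5 of these genes, all higher, against 3.13% of all genes tested. Their summed level was 195 to 316 CPM after nicotine and 158 to 212 CPM in controls, with overlapping groups, and Plvap and Kdr, the most abundant, were at 0.71 and 0.44 on the log2 scale. Erythroid genes were lower, with 7 of 7 below 0 and 5 of them with an unadjusted p under 0.05, against 3.01% of all genes tested. Their sums were 3342 to 10653 CPM against 8809 to 17637 CPM, and Hba-a1 and Hbb, the most abundant, were at -1.09 and -0.98. Of the pituitary hormone genes, Gh1 and Pomc were the most abundant, with log2 fold changes of 0.39 and -0.70 and overlapping groups. Prm2 and Sycp3, the most abundant testis germ cell genes, did not pass the filter. No gene of these lists was called by edgeR or DESeq2. The part of these cells in the results for RT1 genes was not tested.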
